A study of Mus musculus with 5 samples.

Results

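GAS5 was knocked down in HT22 cells with a pair of siRNAs that cut the same transcript at different places, and the library of GAS5 siRNA210 was set here against replicate 1 of GAS5 siRNA596. A gene entered the comparison when it had 20 or more counts in either library, which 14416 of the 55487 genes of the counts table did, and 2 of the 5 libraries of the series are compared. Of these genes 13467 had 20 or more counts in both libraries, 429 only with siRNA210 and 520 only with siRNA596 replicate 1. HT22 is an immortalized mouse line from hippocampus, and all cells were collected 48 h after transfection with 10 nM siRNA and INTERFERin, so that the controls carried a siRNA and the reagent too. The controls are 2 libraries of negative control (NC) siRNA, which the titles and the study's methods name as NC siRNA although the treatment label reads untreated. No genotype differs between the groups, and the sources used here do not say whether the libraries came from separate cultures. With 1 library a side no test was made, and the ratio between the NC libraries served as the scale of the spread between libraries of the same treatment. The question of the comparison is which genes differ between siRNAs that share their intended target.

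Gas5 is a long non-coding RNA whose introns hold small nucleolar RNAs (snoRNAs) and whose spliced transcript starts with a 5′ terminal oligopyrimidine tract, is turned over by nonsense-mediated decay and accumulates when growth stops. Its RNA can occupy the part of the glucocorticoid receptor that reads DNA and so act as a decoy. A siRNA is loaded into an Argonaute protein, its guide strand directs the cutting of RNAs that match it along its whole length, and the seed at the 5′ end of the guide can also lower RNAs that pair with the seed alone, mainly through 3′ untranslated regions (UTRs), as microRNAs do.

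The target sites are printed because the comparison turns on them. They were read from transcript Gas5-210 of the GENCODE annotation of GRCm38, on the plus strand, and the capitals mark the 7 bases that pair with bases 2 to 8 of the guide.
siRNA210: cctctgtgatgGGACATCt
siRNA596: ccggtccttcaTTCTGAAt
The siRNA210 site lies at chr1:161035767-161035785 in exon 2 of 11 and occurs in 18 of the 25 annotated Gas5 transcripts. The siRNA596 site lies at chr1:161038013-161038031 in exon 9 of 11 and occurs in 17 of them. No other annotated gene held the whole of either site, on the sense or the antisense strand (0 genes for each). The guide seeds are GAUGUCC for siRNA210 and UUCAGAA for siRNA596, and neither site holds the seed match of the other siRNA. Of 1679 mature mouse microRNAs in RefSeq (GRCm38.p6), 1 shares bases 2 to 8 with the siRNA210 guide, and none shares them with siRNA596, for which 1 shares bases 2 to 7. These are shown with the shared bases in capitals.
mmu-miR-219b-5p: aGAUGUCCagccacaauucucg
mmu-miR-7670-5p: aUUCAGAugggcagauugggaa
The first lies at chr2:29845647-29845668 and the second at chr6:38507325-38507346, both on the plus strand.

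The libraries were of similar depth, with 34939173 counts for siRNA210, 34535873 for siRNA596 replicate 1, 33884066 and 36492134 for the NC libraries and 30660265 for siRNA596 replicate 2. Values were scaled to CPM, a gene's count relative to the size of its library, with TMM factors, which lay between 0.988 and 1.01 over the 4 libraries of the comparison. Replicate 2 of siRNA596 stood apart, with 5446 genes past 2-fold from siRNA210, and its counts are given beside the others as a description. The tissue label reads hippocampal neuronal, but of 16 neuron markers 5 had 20 or more counts, and Snap25, Stmn2, Dcx, Nefl and Nefm were at 0 in all 5 libraries. The summed level of the neuron markers was 105 CPM with siRNA210, 113 with siRNA596 and 106 and 112 in the NC libraries, nearly all of it from Map2 and Tubb3. Progenitor and mesenchymal markers (9 of 10 measured, Sox2 at 0) summed to 14625 and 13758 CPM, against 13146 and 13177. Most of this came from Fn1, Col1a1 and Vim (5143, 4578 and 3285 CPM with siRNA210), while Nes had 527 CPM and Pax6 47.7. Glia and immune markers (5 of 12 measured, Aqp4 and Ptprc at 0) summed to 35.5 and 42.9 CPM, against 42.8 and 59.1. Slc1a3 was the largest of these, at 25.3 CPM with siRNA210.

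Gas5, the intended target of both siRNAs, had 2134 counts with siRNA210 and 2357 with siRNA596 replicate 1, against 3178 and 2916 in the NC libraries. These were 61.8 and 68.3 CPM, against 93.7 and 79.0 CPM. Both siRNA libraries thus lay below both NC libraries, and they lay closer to each other than the NC libraries did. The log2 ratio of siRNA210 to siRNA596 was -0.14, with a 95% counting interval of -0.26 to -0.02, and that of NC replicate 1 to NC replicate 2 was 0.25. Relative to NC replicates 1 and 2 the log2 ratios were -0.60 and -0.35 for siRNA210 and -0.46 and -0.21 for siRNA596. The ratio of siRNA596 to NC replicate 2 was thus smaller in size than the ratio between the NC libraries. In bulk RNA fewer cells with the transcript and less of it per cell cannot be told apart. With siRNA596 replicate 2, where Gas5 had 4727 counts, in place of replicate 1 the ratio was -1.54, so the near equality of the siRNAs rests on replicate 1.

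Across all genes the siRNA libraries differed less than the NC libraries did. Between siRNA210 and siRNA596, 531 genes (3.68%) were 2-fold or more apart, 233 (1.62%) higher and 298 (2.07%) lower with siRNA210. Between the NC libraries 814 of 14579 genes (5.58%) were, 468 (3.21%) higher and 346 (2.37%) lower in replicate 1. The median log2 ratio of all genes was 9.91e-05 between the siRNAs and 50.8% of genes lay above 0, which the TMM scaling centres near 0 by its construction. The genes past 2-fold were nearly all of low abundance. Their median mean count was 19.5, against 927.5 for all genes, and 443 of them were among the 949 genes with 20 counts in 1 library only. With 20 or more counts required in both libraries 88 genes remained past 2-fold, and 290 between the NC libraries. At a mean count of 200 or more 2 of 10393 genes were past 2-fold between the siRNAs, and 61 of 10415 between the NC libraries. The 129 genes whose larger count was exactly 20 had a median absolute log2 ratio of 0.65, and the 102 just under the limit, at 19, had 0.59.

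**Figure D1:**
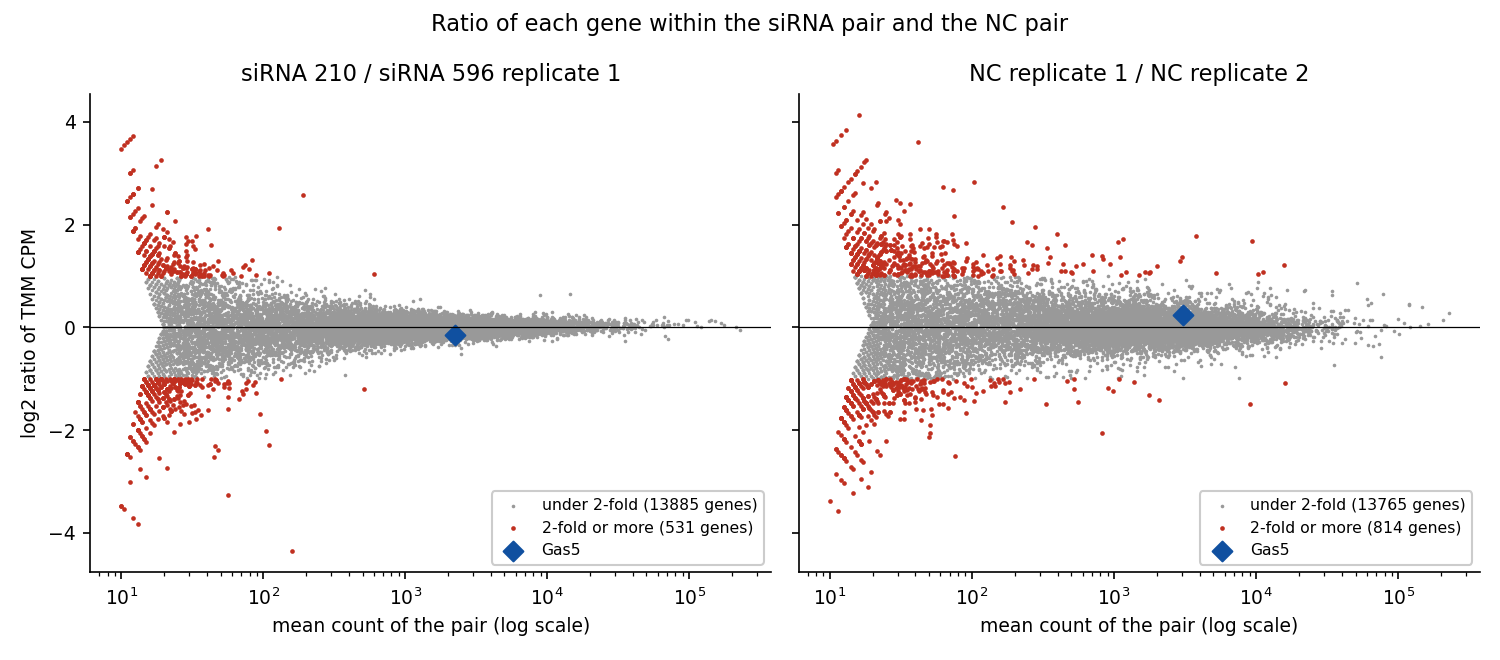
Log2 ratio of TMM CPM (vertical axis) against the mean count of the pair (horizontal axis, log scale) for each gene, with siRNA210 over siRNA596 replicate 1 on the left and the NC libraries on the right; red points are the 531 and 814 genes at 2-fold or more and the diamond is Gas5. On the left the red points crowd at low counts, and 2 lie at a mean count of 200 or more, against 61 on the right.

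The spread of the ratios was set out by abundance, as a robust SD (from the median absolute deviation across genes) in each class of mean count. For genes of 20 to 50 counts it was 0.65 between the siRNAs and 0.76 between the NC libraries. It narrowed to 0.22 and 0.32 at 200 to 500 counts, to 0.12 and 0.20 at 1000 to 2000, and to 0.08 and 0.17 at 5000 or more. Counting error alone, computed on halved counts because low counts were mostly even, gives 0.54, 0.16, 0.08 and 0.03 in these classes for the siRNA pair; on whole counts it would be smaller. The siRNA pair was not the narrowest. The median absolute log2 ratio was 0.096 between siRNA596 replicate 1 and NC replicate 1, 0.112 between the siRNAs and 0.117 between siRNA210 and NC replicate 1. Pairs with NC replicate 2 were wider, at 0.196 for siRNA210, 0.171 for siRNA596 and 0.180 for NC replicate 1. NC replicate 2 thus sets the width of the NC scale, and siRNA596 replicate 1 was nearer to an NC library than to the other siRNA. Against the 99th percentile of the NC pair at the same abundance, 15 of 13896 genes (0.108%) lay beyond, 6 higher and 9 lower with siRNA210. With siRNA210 and NC replicate 1 as the scale 98 lay beyond (0.705%), and with siRNA596 and NC replicate 1 there were 246 (1.77%).

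**Figure D2:**
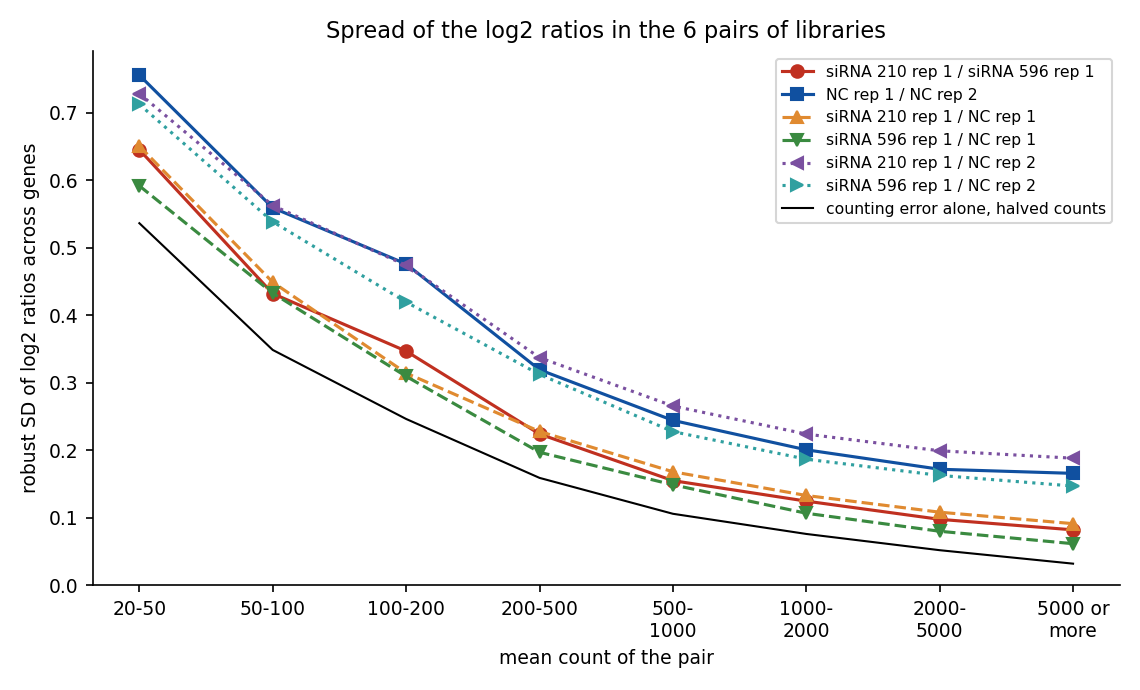
Robust SD of the log2 ratios across genes (vertical axis) in 8 classes of mean count (horizontal axis) for the 6 pairs of the 4 libraries, with the SD that counting error alone gives as a black line. The siRNA pair (red) runs from 0.65 to 0.08, below the NC pair (dark blue), which runs from 0.76 to 0.17, and above the black line in every class.

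Among genes with a mean count of 100 or more, the differences between the siRNAs were in genes that share sequence with another gene. There were 9 such genes past 2-fold of 11309, and 8 of the 9 share 50% or more of their 50-base words with a transcript of another gene, as do 476 of the 11309. Of the 9626 genes that share under 5% none was past 2-fold, whereas 83 of 9619 such genes were between the NC libraries (0.863%). Genes that share 50% or more were past 2-fold in 8 of 476 cases between the siRNAs (1.68%) and in 12 of 482 between the NC libraries (2.49%). The ninth, AC133509.1, shares 36.6% and had 150 and 71 counts, against 175 and 153 in the NC libraries (1.06). Processed pseudogenes, which are reverse-transcribed copies of mRNAs, made up 5 of the 9, which is 1.4% of the 358 pseudogenes at this abundance, and between the NC libraries 12 of 376 were past 2-fold (3.19%). How reads that fit several places were counted is not given in the sources used here, so the level of each such gene is uncertain.

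Gm9242, a processed pseudogene on chromosome 16 with 95.1% of its words shared, mainly with Hnrnpa3, had 13 counts with siRNA210 and 303 with siRNA596 replicate 1. The NC libraries had 20 and 23 and siRNA596 replicate 2 had 1, so that siRNA596 replicate 1 was alone in its level. Its log2 ratio of -4.35 (-5.94 to -3.43) was the lowest of all genes. Summed with Hnrnpa3, an RNA-binding protein gene, the counts were 4949 and 5617 and the log2 ratio was -0.18. Gm44126, a pseudogene that lies wholly within the sequence of Uxs1, had 326 counts with siRNA210 and 53 with siRNA596, and both NC libraries lay between them at a log2 ratio of -1.26 to each other. The log2 ratio of 2.58 became 0.13 for the sum with Uxs1, an enzyme gene of UDP-xylose synthesis.

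Srp54b, a copy of the gene for the GTPase subunit of the signal recognition particle, had 36 counts with siRNA210 and 184 with siRNA596, against 275 and 57 in the NC libraries. The NC libraries thus differed more (log2 ratio 2.35) than the siRNA libraries (-2.29 in the other order), and the sum with Srp54c, at 780 and 802 counts, had a ratio of -0.04. Hspd1-ps3, a pseudogene of the mitochondrial chaperonin Hspd1, had 312 and 715 counts, against 1586 and 547, and its ratio of -1.19 became -0.17 in the sum. Apoo-ps had 9 and 104 counts, against 74 and 79, and 99 in siRNA596 replicate 2. Here the NC libraries differed by 0.03 and siRNA210 was the only low library. Its ratio of -3.27 became -0.17 in the sum with Apoo. For Gm7327, a pseudogene of the cap-binding factor gene Eif4e, -2.52 became 0.02, and for Gm6395, of the chaperone gene Dnajb6, -1.0 became -0.08.

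For these 7 genes the partner had more counts than the gene, so that its counts largely set the ratio of the sum. For the other 4 of the 11 genes the partner had fewer counts than the gene in both siRNA libraries, and the sum stayed nearer to the gene's ratio. 1700047I17Rik2, whose words all occur in Fam177a, had 204 counts with siRNA210 and 52 with siRNA596 replicate 1, against 46 and 52 in the NC libraries and 74 in siRNA596 replicate 2. The siRNA210 library was thus the only high one of 5, with a log2 ratio of 1.93 (1.34 to 2.65) and 1.87 in the sum. Rsph3a, a radial spoke gene, had 809 and 393 counts, against 279 and 837 in the NC libraries, so that each siRNA library resembled a different NC library. Its ratio was 1.04, and 0.71 in the sum with Rsph3b. Gsta1, a glutathione S-transferase gene of a family of close copies, had 40 and 169 counts, against 78 and 5, with a ratio of -2.03, and -2.07 in the sum with Gm3776. Entpd4b had 14 and 82 counts, against 17 and 84, and its ratio was -2.39, and -1.78 in the sum with Entpd4.

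**Figure D3:**
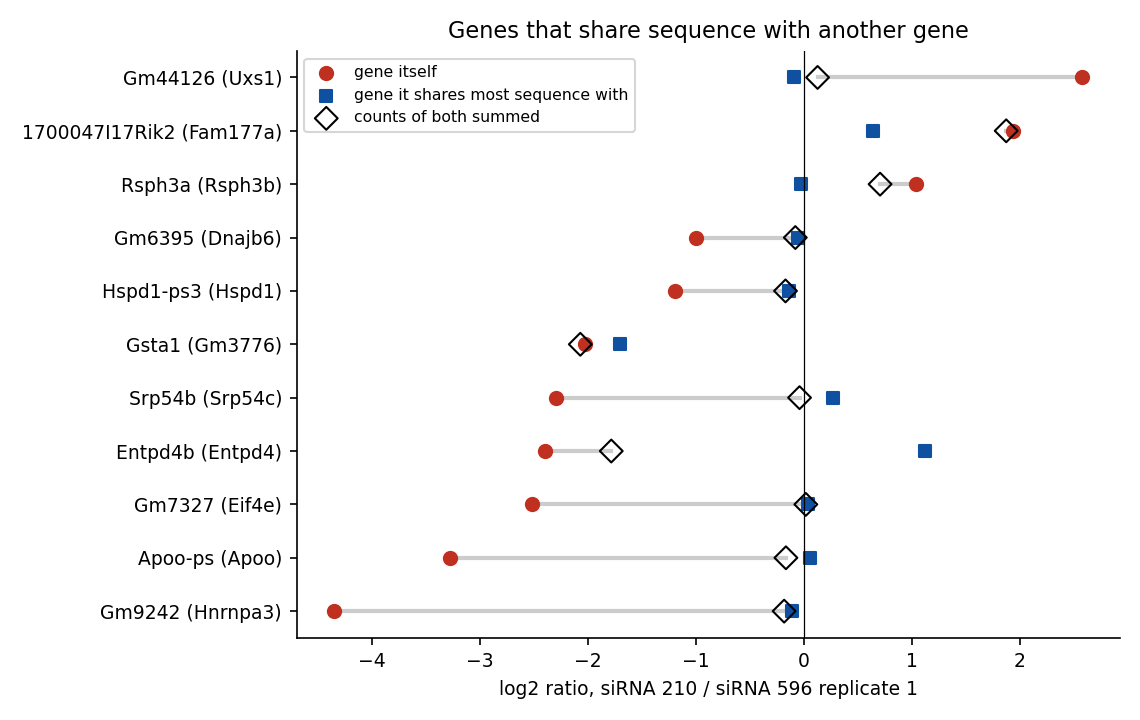
Log2 ratio of siRNA210 to siRNA596 replicate 1 (horizontal axis) for the 11 genes that share 50% or more of their 50-base words with another gene and were either past 2-fold at a mean count of 100 or more or beyond the NC pair's 99th percentile. Red circles are the gene, blue squares the gene it shares most words with (in brackets) and open diamonds the counts of both summed; in 7 rows, where the partner is the more abundant, the diamond lies between -0.18 and 0.13, and in 4 it lies further out.

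Of the 15 genes beyond the NC pair's 99th percentile, 10 shared 50% or more of their words. The other 5 were of low abundance. Mest, an imprinted gene of the hydrolase fold family, had 36 counts with siRNA210 and 6 with siRNA596, against 34 and 18 in the NC libraries and 14 in siRNA596 replicate 2. Ky, a muscle protein gene, had 40 and 8 counts, against 21 and 27. For both, siRNA596 was the lowest of the 4 libraries, and for Mest siRNA210 was near an NC library. Ccdc17 had 14 and 77 counts, against 55 and 26. Gm5176 had 4 and 38 counts, against 12 and 25, and AC169509.1 had 36 and 6 counts, against 26 and 55. The log2 ratios of these 5 genes were 2.25, 2.07, -2.31, -2.74 and 2.25.

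Genes with a mean count of 200 or more and no close copy differed by less than 2-fold. The lowest with siRNA210 included Gpatch3, with 161 and 292 counts (-0.85), Sybu, with 184 and 313 (-0.76), Zfp65, with 184 and 311 (-0.75), and Ccn3, with 163 and 271 (-0.73). Sybu encodes syntabulin, which links vesicles to kinesin, Zfp65 a zinc finger protein and Ccn3 a secreted matrix protein. For Sybu the NC libraries had 235 and 216 counts, between the siRNA libraries, and for Zfp65 they had 268 and 258, also between them. Gpatch3 (191 and 347) and Ccn3 (246 and 384) had NC libraries that differed by -0.73 and -0.52. The highest included Lgr6, a receptor of R-spondins, with 346 and 202 counts (0.77), against 253 and 169. Plekhh1 had 290 and 172 counts (0.75), against 223 and 258. Snx16, an endosomal sorting nexin, had 319 and 194 counts (0.71), against 287 and 255. Jak3, the kinase of cytokine receptors with the common gamma chain, had 685 and 436 counts (0.65, interval 0.40 to 0.90), against 515 and 402. Lgr6, Jak3, Plekhh1 and Snx16 were highest with siRNA210 among the 4 libraries, and Plekhh1 and Snx16 were also lowest with siRNA596.
The other 5 genes named by the same rule were Gm42979 (-0.82), Umad1 (-0.69), 9530077C05Rik (0.66) and, with copies elsewhere, Gm4617 (0.73, 93.1% of words shared) and Gm23935 (0.66, all words shared). Gm23935 is annotated as a miRNA gene and had 17653 and 11185 counts, against 12042 and 17293 in the NC libraries, so that each siRNA library again lay near a different NC library.

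The largest ratios of all were in genes at or near 0 in 1 library, for which counting error alone is wide. F13a1, the coagulation factor XIII A chain, had 0 counts with siRNA210 and 24 with siRNA596, against 9 and 6 in the NC libraries. Measured against a floor of 3 counts in a library, it was 8.0-fold lower with siRNA210. This fold leaves out the error of the larger count, and the counting interval of the log2 ratio reached up to -1.47. Cdc42ep5, an effector of the GTPase Cdc42, had 0 and 20 counts, against 14 and 12. It was 6.67-fold lower against the floor, with an interval up to -1.16. Nfam1, a receptor that activates NFAT signalling, had 24 and 0 counts, against 12 and 8. It was 8.0-fold higher against the floor, with an interval from 1.47. AI182371 had 20 and 0 counts, against 9 and 19, and was 6.67-fold higher, with an interval from 1.16. In all 4 genes both NC libraries lay between the siRNA libraries.
With 2 counts in the lower library, Nkain2 (2 and 25 counts) had a ratio of -2.76 with an interval of -9.06 to -0.90. Zfp985, a zinc finger gene, had 33 and 2 counts, a ratio of 3.14 and an interval of 1.36 to 9.43. Among the 24 genes of the 12 highest and 12 lowest ratios, 10 were protein-coding by annotation, and the larger count of the pair lay between 20 and 38 in all but Gm9242 and Apoo-ps.

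To see which siRNA the differences belonged to, genes were counted where a single library lay 2-fold or more beyond each of the other 3, among 14974 genes with 20 or more counts in any of the 4. The siRNA210 library stood apart in 38 genes upward (0.254%) and 102 downward (0.681%), and siRNA596 replicate 1 in 40 upward (0.267%) and 84 downward (0.561%). The same count gave 50 (0.334%) and 60 (0.401%) for NC replicate 1 and 79 (0.528%) and 209 (1.4%) for NC replicate 2. Neither siRNA library therefore stood apart in more genes than NC replicate 2, and both stood apart downward in more than NC replicate 1. With 20 or more counts in all 4 libraries the siRNA210 library stood apart in 4 genes and siRNA596 replicate 1 in 2. No share or NC count is given under this limit, so these counts have no background beside them. Of the 233 genes past 2-fold and higher with siRNA210 the NC mean lay between the siRNAs in 170, and of the 298 lower genes it did in 239. These genes were chosen for the gap between the siRNAs, which by itself favours a mean of other libraries falling inside it. The counts therefore do not tell which siRNA a difference belongs to.

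Among genes in which the siRNA210 library was furthest above the others, Btnl9, a butyrophilin-like gene, had 20 counts, against 2 with siRNA596 replicate 1 and 0 in replicate 2 and in both NC libraries. Btn1a1, which encodes butyrophilin itself, had 22 counts, against 2 and 4 with siRNA596 and 4 and 2 in the NC libraries. The ratio of siRNA210 to siRNA596 replicate 1 was 2.47 (0.51 to 8.76) for Btnl9 and 2.59 (0.68 to 8.89) for Btn1a1. Lce1g, a cornified envelope gene, had 23 counts, against 6 and 16 with siRNA596 and 4 and 1. Downward, Plxnb3, a semaphorin receptor, had 0 counts, against 6 with siRNA596 and 22 and 10, but was also at 0 in siRNA596 replicate 2. For siRNA596 replicate 1, C1rb, a copy of the complement protease gene C1ra, had 146 counts, against 44 with siRNA210 and 28 and 43 in the NC libraries. Replicate 2 of siRNA596 had 96, so both siRNA596 libraries lay above the other 3. The log2 ratio was -1.69 (-2.49 to -1.03), and C1ra, which shares 60.1% of the words of C1rb, had 1034 and 1015 counts and a ratio of 0.03. Fn3k, a kinase that repairs glycated proteins, had 20 counts, against 6 with siRNA210 and 6 and 4, and 10 in replicate 2. Ceacam1, an adhesion molecule gene with close relatives, had 0 counts, against 16 with siRNA210 and 8 and 22.

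The gene lists were then read, each by its members with 20 or more counts, beside the median of all genes at 9.91e-05 and beside the NC pair. Cell cycle genes are listed first, since the study followed proliferation. Of 48 DNA replication genes 35 lay above 0 and none was past 2-fold, and their median was 0.04 (NC pair -0.0034). Gins1, of the replicative helicase, had 837 and 758 counts (0.14), and Pole2, a polymerase subunit, had 879 and 1013 (-0.20). G2 and mitosis genes (19 of 32 above 0) had a median of 0.03 (NC pair 0.06), between Nek2 at -0.11 and Ccnf at 0.19. G1 to S genes (9 of 19 above 0) had -0.04 (NC pair -0.06). Ccne1, encoding cyclin E1, had 960 and 755 counts (0.35, interval 0.15 to 0.55), against 972 and 1256, and Cdk6 had 2890 and 3380 (-0.23), against 3403 and 3892. For Ccne1 siRNA596 was the lowest of the 4 libraries, and for Cdk6 siRNA210 was.

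CDK inhibitors and p53 target genes (18 of 29 above 0) had a median of 0.03 (NC pair -0.0040). Cdkn1a, the gene of the CDK inhibitor p21, had 3206 counts with siRNA210 and 2529 with siRNA596, against 2324 and 1211 in the NC libraries. Its ratio of 0.34 (0.24 to 0.45) was the highest of the list, and the NC libraries differed by 1.06. Cdkn2a, the locus of p16, had 13829 and 11970 counts, against 12229 and 13080, with a ratio of 0.21 (0.16 to 0.26) and 0.03 between the NC libraries. Both inhibitor genes were highest with siRNA210 among the 4 libraries. In siRNA596 replicate 2 Cdkn1a had 320 counts, the lowest of the 5 libraries, and Cdkn2a had 24319, the highest.

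The 14 measured genes of the snoRNA host list, which holds Gas5 itself and Mir17hg, a host of microRNAs, had a median of 0.10 (10 above 0, NC pair 0.25). Snhg15 had 348 and 400 counts (-0.20), against 388 and 388, and Epb41l4aos had 172 and 118 (0.54), against 207 and 162. The glucocorticoid receptor and its target genes (9 of 15 above 0) had a median of 0.09 (NC pair 0.22). Of these Lcn2, a secreted lipocalin, was past 2-fold with 48 and 23 counts, against 20 and 30, and its interval of -0.01 to 2.22 took in 0.

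Genes that handle small or double-stranded RNA were examined because both cultures received a siRNA. Of 18 small RNA processing and Argonaute genes 6 lay above 0, with a median of -0.05 (NC pair -0.02). Ago2, the Argonaute that cuts target RNAs, had 8641 counts with siRNA210 and 10309 with siRNA596, against 9176 and 9690. Among the libraries of the comparison it was lowest with siRNA210 and highest with siRNA596 replicate 1. The ratio was -0.25 (-0.31 to -0.20), and the NC libraries differed by 0.04. Replicate 2 of siRNA596 had 1723 counts of Ago2, fewer than any of these. Sensors of double-stranded RNA (3 of 12 above 0) had a median of -0.07 (NC pair -0.21), with Tlr3 at 472 and 544 counts (-0.20). Interferon-stimulated genes (14 of 39 above 0) had -0.08, against -0.68 between the NC libraries. None of the 39 was past 2-fold. Their median was 0.04 for siRNA210 and 0.10 for siRNA596 relative to NC replicate 1, and -0.66 and -0.50 relative to NC replicate 2. Ifit3 had 37 and 61 counts, against 40 and 142, and Oas2 had 44 and 28, against 52 and 123. Nonsense-mediated decay factors (9 of 18 above 0) had a median of -0.01, between Upf1 at -0.11 and Smg8 at 0.21.

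Among metabolic lists, hypoxia response and glycolysis genes had a median of 0.12, with 33 of 37 above 0, and the NC pair had 0.44. The single member past 2-fold, the glucose transporter gene Slc2a3, was in the other direction with 6 and 23 counts (-1.65). Cholesterol and fatty acid synthesis genes had 0.06 with 26 of 31 above 0, where the NC pair had -0.32. The 15 mitochondrially encoded genes had -0.16 with 2 above 0, and the NC pair had 0.05. mt-Atp6, with 98.4% of its words shared with Gm10925, had 260 and 496 counts (-0.93, interval -1.25 to -0.62), against 334 and 653. For it the NC libraries differed by -0.84, and its counts were far below the list's median of 9776.5. mt-Atp8, which overlaps mt-Atp6, had 23 and 8 (1.32), against 16 and 3. Nuclear-encoded oxidative phosphorylation genes (46 of 76 above 0) had 0.03 and mitochondrial ribosomal protein genes (36 of 77) had -0.01. Cytosolic ribosomal protein genes had 0.055 with 62 of 85 above 0 (NC pair 0.12), and Rpl24, with 82.5% of its words shared, had 9 and 34 counts (-1.71).

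Of the stress lists, ATF4 and amino acid stress genes (21 of 28 above 0) had a median of 0.07 (NC pair 0.21), between Slc7a3 at -0.49 and Fgf21 at 0.51. Glutathione and NRF2 genes (21 of 34) had 0.05 (NC pair 0.19), and their members past 2-fold were Gsta1 and its relative Gsta2, which went in opposite directions. Gsta2 had 32 and 8 counts (1.77), against 34 and 2. Heat shock proteins and chaperones (11 of 25) had -0.01, and Serpinh1, a collagen chaperone, had 19 and 32 counts (-0.70). Immediate-early genes (19 of 33) had 0.02, between Egr2 with 72 and 118 counts (-0.70) and Nr4a1 with 398 and 296 (0.42).
Collagen and matrix genes (20 of 35) had 0.03 (NC pair -0.16), and Col5a3 had 12 and 41 counts (-1.62), against 49 and 11. Replication-dependent histone genes, of which 19 of 69 passed the count limit, had a median of -0.14 (9 above 0, NC pair 0.11). Their median count was 31.5, and with 20 or more counts required in both libraries the median ratio was 0.04. Hist1h2bh had 4 and 20 counts (-1.88), against 8 and 11, Hist1h4j had 39 and 18 (1.04), against 17 and 22, and Hist1h3d had 22 and 10 (1.00), against 12 and 27. The histone members past 2-fold thus went both ways, at low counts. Clustered protocadherin genes (9 of 22) had -0.07, with Pcdhga11 at 27 and 9 counts (1.40). Proteasome subunit genes (23 of 37) had 0.02, and abundant nuclear and imprinted lncRNAs (5 of 7) had 0.04.

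**Figure D4:**
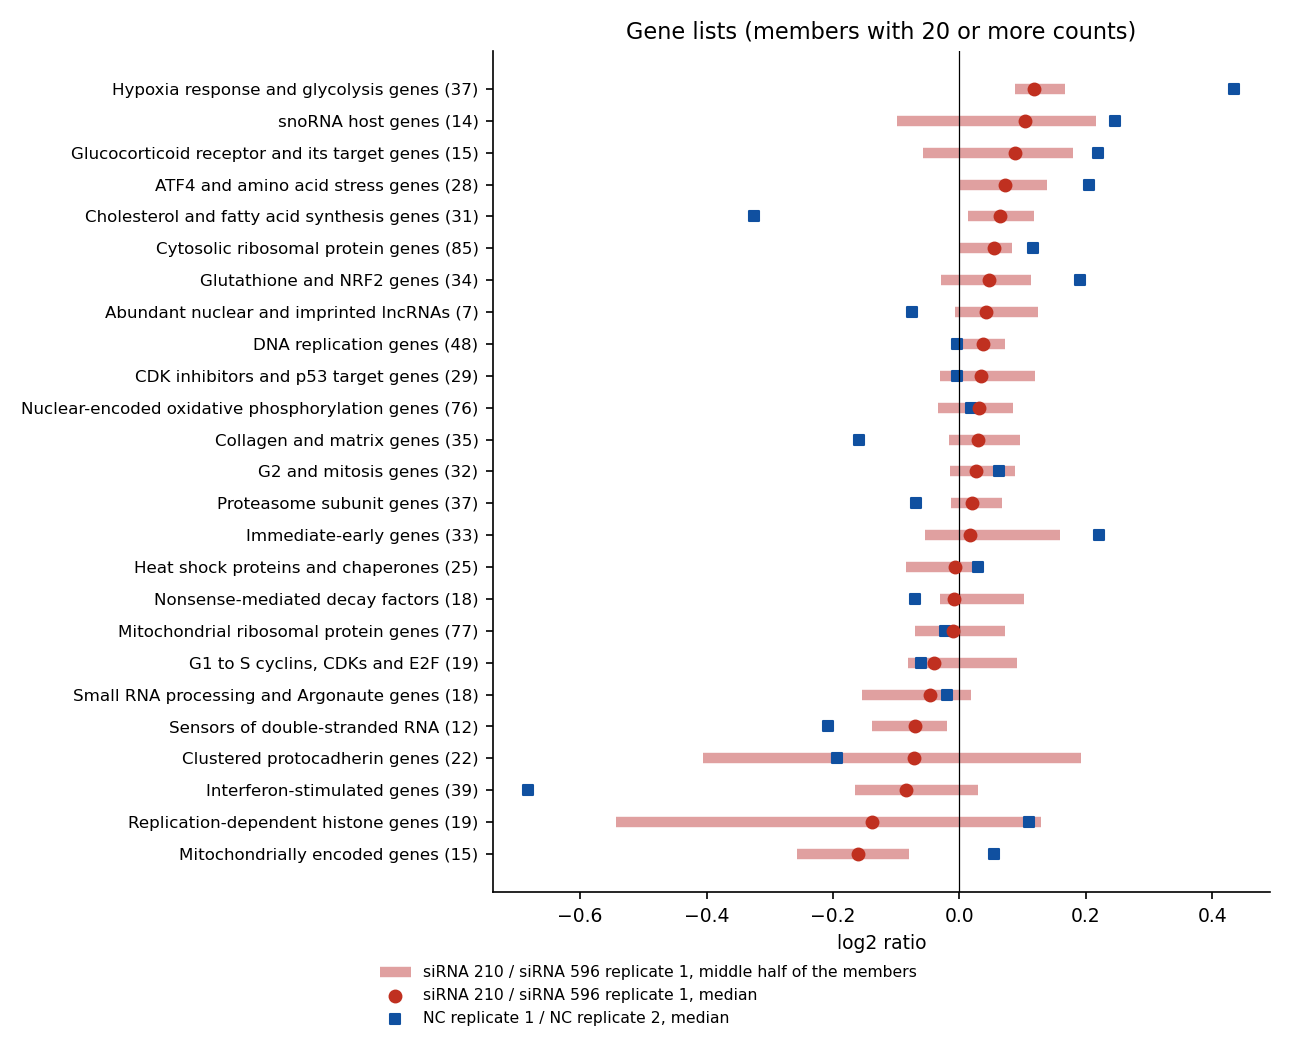
Median log2 ratio (horizontal axis) of the members of each of 25 gene lists with 20 or more counts, with their number in brackets. Red circles are siRNA210 over siRNA596 replicate 1 with bars from the first to the third quartile of members, and blue squares are NC replicate 1 over NC replicate 2; the red medians lie between -0.16 and 0.12 and the blue between -0.68 and 0.44.

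The ratio between the siRNAs moved with the base composition of the transcripts. Over 10387 genes with a mean count of 200 or more it had a Spearman correlation across genes of 0.29 with GC content, against -0.07 for the NC pair. In 10 equal classes by GC content, the poorest class (median 39.7%) had a median ratio of -0.07 and the richest (59.5%) had 0.06. The same correlation was 0.41 for siRNA210 relative to NC replicate 1 and 0.16 for siRNA596 relative to NC replicate 1, ratios that share the control library. The siRNA ratio also had a correlation of -0.19 with transcript length and of -0.20 with 3′ UTR length (9975 genes), where the NC pair had -0.07 and 0.0011. The genes of each library share its preparation, so these values describe 4 libraries. When the medians of GC and length classes were taken off, the mitochondrially encoded list, whose transcripts have a median GC content of 36%, went from -0.16 to -0.08, the glucocorticoid receptor list from 0.09 to 0.03, and the hypoxia list from 0.12 to 0.10. The part of GC content in the list values was not tested further.

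Seed matches were counted in the longest annotated 3′ UTR of each gene, available for 12023 of the genes. The letters searched in the sense strand were GGACATC for siRNA210 and TTCTGAA for siRNA596. Genes with a match of siRNA210 alone (584) had a median ratio of -0.02, those with a match of siRNA596 alone (2352) also had -0.02, those with both (271) had -0.05 and those with neither (8816) had 0.01. A match thus went with a lower ratio whichever siRNA it belonged to. Genes with matches also had longer 3′ UTRs, with medians of 1921, 2302 and 3485 bases, against 900 for those with neither.
With the trends of GC content and whole-transcript length taken off, a step added after the data had been seen, the groups parted. The length of the 3′ UTR itself was not taken off. Genes with a siRNA210 match stayed at -0.025, lower with siRNA210. Genes with a siRNA596 match went to 0.007, the side of lower levels with siRNA596, but genes with neither were close by at 0.002. The separation was widest for matches of 8 bases, which add an A opposite base 1 of the guide. The 263 genes with such a match of siRNA210 had -0.045, the 984 with one of siRNA596 had 0.014 and the 10742 with neither had 0.001. For genes with the siRNA210 match the median relative to the NC mean, on the same scale, was -0.028 with siRNA210 and 0.009 with siRNA596. For genes with the siRNA596 match it was -0.002 with siRNA210 and -0.013 with siRNA596. On this scale the siRNA with the matching seed gave the lower value in each group, beside 0.003 and 0.001 for genes with neither. As measured this held for the siRNA210 group only. In the siRNA596 group siRNA210 gave -0.037 and -0.023 as measured, relative to NC replicates 1 and 2. These lay below the values of siRNA596, at -0.023 and -0.005. Between the NC libraries, with the same trends taken off, the medians of these groups were 0.026 (siRNA210 match), 0.010 (siRNA596 match) and 0.006 (neither). The NC pair thus also set the siRNA210 group apart from the others, by less than the siRNA pair did and with the other sign. For the siRNA596 match, the siRNA pair's distance from neither (0.014 and 0.001) was smaller than this NC distance (0.026 and 0.006). The differences are small beside the spread of single genes, since among the 234 genes with an 8-base siRNA210 match and a mean count of 200 or more the quartiles before trends were taken off were -0.15 and 0.05. Counts of matches are not independent of UTR length, and the genes with 3 or more siRNA210 matches numbered 8.

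**Figure D5:**
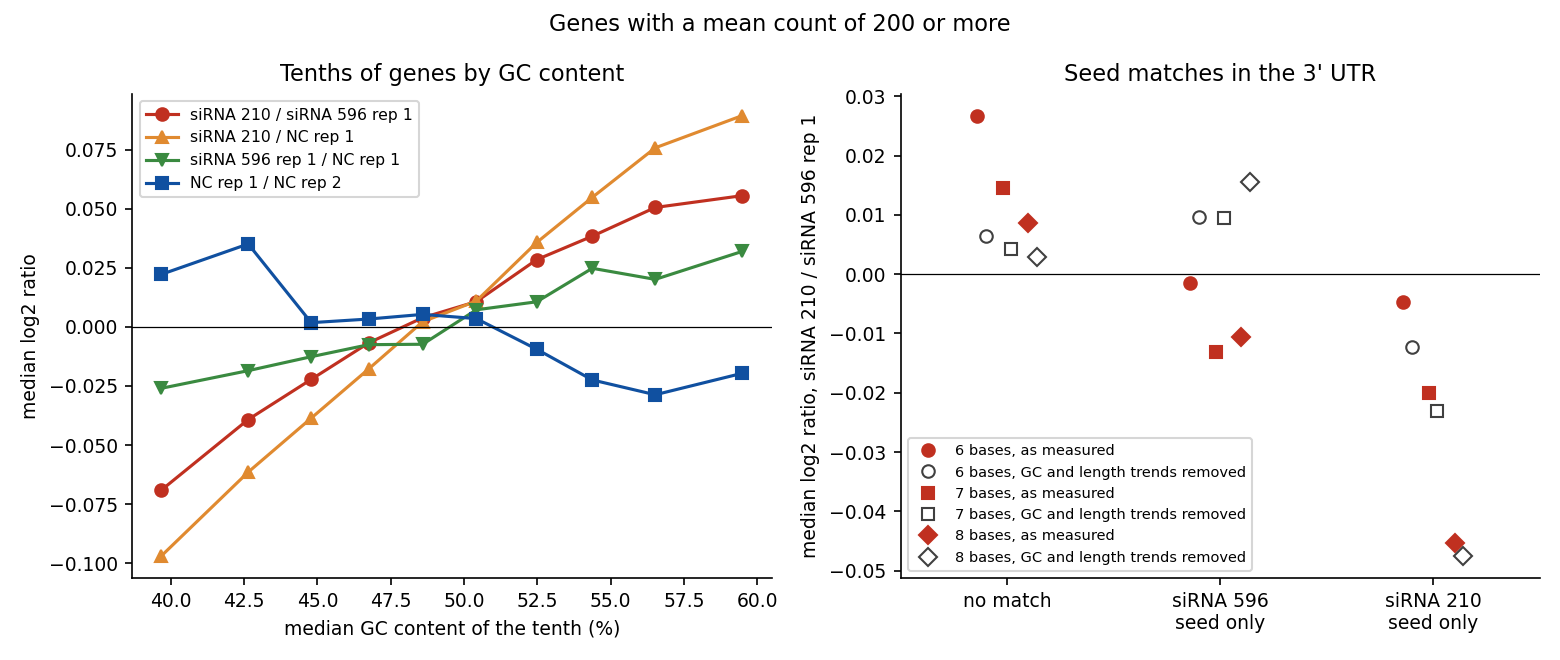
Left, median log2 ratio (vertical axis) in 10 equal classes of genes by GC content (horizontal axis, percent), in which siRNA210 over siRNA596 replicate 1 (red) climbs from -0.07 to 0.06 and the NC pair (blue) does not. Right, median log2 ratio of siRNA210 to siRNA596 replicate 1 for genes with no seed match, a siRNA596 match or a siRNA210 match in the 3′ UTR. Points are filled as measured and open with GC and length trends removed. The open points lie below 0 for siRNA210 matches. They lie above 0 for siRNA596 matches (0.009 to 0.016) and also, less far, for no match (0.003 to 0.006). Both panels hold genes with a mean count of 200 or more.

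Longer matches to the target sites were also looked for outside Gas5. The longest run of bases matching a target site was 14, in Chst10 and Zfp426 for siRNA210 and in Dync1i2 for siRNA596. Chst10, a sulfotransferase gene, had 240 and 257 counts (-0.10), against 256 and 263 in the NC libraries. Zfp426, a zinc finger gene, had 735 and 755 counts (-0.04), against 738 and 814. Dync1i2, a dynein intermediate chain, had 5077 and 4993 counts (0.02), against 5353 and 5441. The counting intervals of all of these ratios took in 0. Runs of 13 bases occurred in 11 further genes for siRNA210, with ratios of -0.26 to 0.65, and in 6 for siRNA596, with ratios of -0.14 to 0.88, none past 2-fold. Among genes with runs of 12 bases, 0 of 49 were past 2-fold for siRNA210 and 1 of 42 for siRNA596, and with runs of 11 bases 2 of 188 and 5 of 204 were, beside 3.68% of all genes.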

How the data were processed

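Libraries were made from oligo-dT selected RNA of 5 HT22 samples with a NEBNext Ultra RNA kit, and per the study's methods and the submitters' processing notes reads were trimmed with Trimmomatic, aligned with HISAT2 2.1.0 to GRCm38, sorted with SAMtools 1.7 and counted with featureCounts 2.0.1 on Ensembl release 101. The deposited table gives raw read counts per gene, which the authors had not normalized. The strand setting and the handling of reads with several alignments are not given in the sources used here. The authors' deposited DESeq2 1.26.0 table (6 columns of their comparison of KD with NC) was not used.

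Here counts were scaled with TMM (edgeR 4.0.16, R 4.3.3) over siRNA210, siRNA596 replicate 1 and both NC libraries. Log2 ratios of CPM used a prior count of 2 and genes with 20 or more counts in either library of a pair, and 2-fold was the limit for a difference. There was 1 library a side, so no test was made. Each ratio's 95% interval is exact binomial (Clopper-Pearson) and covers counting error only. Of counts from 1 to 20, 62.0 to 68.0% were even, against 49.2 to 50.5% of counts from 100 to 999, so counts were halved for the intervals and for the counting error by abundance. This choice, the removal of GC and length trends and the sums of genes with their partners were added after seeing the data. Counts of 3, not halved, were the floor for genes at 0, and folds against it leave out the error of the larger count.

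Names, transcripts and UTRs came from GENCODE M21 (GRCm38), which held 55227 of the 55487 identifiers (99.5%), and miRNA sequences from RefSeq. Shared sequence is the percent of a gene's 50-base words, taken every 10 bases, found in transcripts of other genes. Passenger strands were not searched. GC and length trends were removed as medians of 20 GC and 20 transcript length classes. The named genes are Gas5, the 12 highest and 12 lowest ratios, the 8 highest and lowest at a mean count of 200 or more, the 8 furthest apart in each direction in each siRNA library, and list members past 2-fold or else the highest and lowest of a list. Cdkn2a, the genes with the longest site matches, those past 2-fold at a mean count of 100 or more, those beyond the NC pair's 99th percentile and their partner genes were named after their values were seen. The comparison, the gene lists and the rules were chosen with earlier results of these data known. The steps were checked on simulated data. Alternatives were library size alone, size factors of DESeq2 1.42.0, other count limits and prior counts, other libraries and noise scales, and 6- or 8-base seed matches. Figures were drawn with matplotlib 3.10.9 in Python 3.11.15.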

Additional observations from a re-analysis of the deposited data

Results flagged for a closer look

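Gas5 had a level of 175 CPM, scaled over all 5 libraries, in siRNA596 replicate 2, a library outside the comparisons above, which was above its level in either NC library (90.8 and 76.3 CPM on the same scale).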

How the results depend on the processing

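The count of 531 genes past 2-fold became 88 with 20 counts required in both libraries, 81 with 50 in either, 5630 with 1 or more in either and 5446 with siRNA596 replicate 2 in place of replicate 1. The NC pair's 814 became 290 and 296 under the first and second of these limits. The median absolute log2 ratio of 0.112 became 0.103 and 0.0960 under them and 0.774 with replicate 2, where Gas5 went from -0.14 to -1.54. The 140 genes in which siRNA210 stood apart became 4, 11 and 80 (20 counts in all libraries, 50 in any, prior count 5), 64 with siRNA596 replicate 2 added and 213 to 238 without an NC library. The 124 of siRNA596 replicate 1 became 2, 10, 62, 64 and 192 to 228. The 15 genes beyond the noise scale became 98 and 246 with NC replicate 1 and siRNA210 or siRNA596 as the scale. Library size alone, DESeq2's size factors and a prior count of 0.5 left each of these counts within 1.5 times. Of the 25 list medians all kept their sign under both scalings and both prior counts, 24 did with 20 counts in both libraries (histones changed) or 50 in either (protocadherins changed) and 23 did with GC and length trends removed (nonsense-mediated decay and immediate-early genes changed). Medians by seed match (siRNA210, siRNA596, neither) were -0.0015, -0.0041 and 0.025 for 6 bases, -0.043, -0.015 and 0.0063 for 8, and -0.025, 0.0070 and 0.0023 with trends removed. No paired analysis was possible because the results come from no test. The cause of these shifts was not tested, beyond the smaller number of genes that a stricter limit leaves. With 1 library a side, depth limits genes under 50 counts most.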
